A study of Homo sapiens with 6 samples.

Results

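The COPI coatomer genes and the GTPase gene ARF1, 10 genes in all, were examined in SK-BR-3 cells after knockdown of GRB2. They were picked by symbol from the 30327 genes of the count table, because COPB2 had fallen by about the size given below and the question was whether the rest of the coat followed. The difference of COPB2 is therefore described here without a test. The other 9 genes were taken as parts of the same coat and not for their values. Of the 10 genes, 9 had enough reads to be tested and COPZ2 had not.

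COPI is one of the coats that bud vesicles from Golgi membranes, and it returns proteins from the Golgi to the endoplasmic reticulum and between Golgi cisternae. The small GTPase ARF1, once loaded with GTP, recruits the whole preformed coatomer to the membrane. COPA, COPB2 and COPE encode the alpha, beta-prime and epsilon subunits, which form the outer layer, while COPB1, ARCN1, COPG1 or COPG2, and COPZ1 or COPZ2 encode the beta, delta, gamma and zeta subunits of the inner layer. Each coatomer holds 1 copy of each subunit. The beta-prime and alpha subunits bind the dilysine motif at the end of many membrane proteins that are sent back to the endoplasmic reticulum.

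SK-BR-3 is an established human breast cancer cell line with amplified HER2. Poly(A) RNA was sequenced in 3 control libraries from cells with a nontargeting siRNA (si_NC) and in 3 libraries from cells in which an siRNA targeted GRB2 (si_GRB2). Descriptions of the libraries give these names, while the titles and genotype labels of the treated libraries speak of GRB2 overexpression. GRB2 itself had 123.9, 129.5 and 125.7 CPM (the reads of a gene relative to the library size after TMM normalization) in si_NC and 27.78, 28.15 and 29.59 CPM in si_GRB2, so the libraries were read as knockdown. The labels give no time of harvest and do not say whether the libraries of a group came from separate cultures, so p-values measure the spread between these libraries, which may be technical. They also do not name the siRNA that was used. The study's methods print a single sequence against GRB2, and its table of RNA concentrations lists more than 1 such siRNA.

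The reads counted on genes ranged from 24810378 to 28532480 per library. Of 8 epithelial and HER2 markers, all but CDH1 had at least 1 CPM in every library, and their summed level was 19600 to 20000 CPM in si_NC and 16300 to 17000 CPM in si_GRB2. These markers did not move together, since ERBB2, the HER2 gene, rose by 0.24 on the log2 scale (edgeR adjusted p = 1.14e-06), while KRT8 fell by 0.41 and KRT18 by 0.55, with edgeR adjusted p-values of at most 1.76e-10. KRT7, KRT19, GRB7 and EPCAM were lower as well. The summed levels of 5 fibroblast markers and 5 leukocyte markers were at most 5.88 and 2.67 CPM. The 4 endothelial markers summed to 28.9 to 30.9 CPM in si_NC and 17.5 to 21.4 CPM in si_GRB2, nearly all of it from CDH5, and their part in the results below was not tested. In these bulk libraries, fewer cells of a kind and less RNA per cell cannot be told apart.

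An siRNA guide strand can also pair with other mRNAs through its seed, the bases at positions 2 to 8 from its 5′ end. Matches in the 3′ UTR are known to lower an mRNA, and matches elsewhere in a transcript were not searched. The 7 bases that pair with the seed of the guide against GRB2, as its sequence is printed in the study's methods, are ACAGATC. The 3′ UTR of the canonical transcript of each gene in GENCODE 44 was searched for these letters on the mRNA strand. Of the 9 tested genes, 2 held 1 match each, COPB2 and COPB1. These are shown because they are also the 2 members with the largest falls in si_GRB2. The search was made after both falls had been seen, and the fall of COPB2 had chosen the group. Each is printed with 9 bases on either side, 5′ to 3′ on the mRNA strand of GRCh38, and the capitals mark the match. The site of COPB2 lies on the minus strand of chr3:139357819-139357843, and its match starts at base 29 of a 3′ UTR of 457 bases. The site of COPB1 lies on the minus strand of chr11:14457551-14457575, and its match starts at base 258 of a 3′ UTR of 312 bases.
COPB2: cctgactaaACAGATCattattata
COPB1: gtacaataaACAGATCtattcataa

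Over all 12690 tested protein-coding genes with a 3′ UTR, 8.12% held at least 1 match. Among 3239 of these with a 3′ UTR of at most 500 bases, the length class of COPB2 and COPB1, 1.2% held a match. The 500-base limit was chosen after these matches were seen. In that class, 66.7% of the 39 genes with a match were down-regulated at an adjusted p under 0.05 (edgeR's quasi-likelihood test), against 21.4% of the 3200 genes without. Their median log2 fold changes were −0.27 and −0.03. Over all lengths, 30.0% of the 1031 genes with a match and 16.8% of the 11659 genes without were down-regulated, with median log2 fold changes of −0.06 and 0.01. COPB2 and COPB1 are among the genes with a match in both comparisons, so their own falls count toward these shares and medians. These shares describe how the match moved with the difference across genes. A match is not a shown binding site, the labels do not say that this siRNA was the one sequenced, and the part of the match in the falls of COPB2 and COPB1 was not tested.

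**Figure D1:**
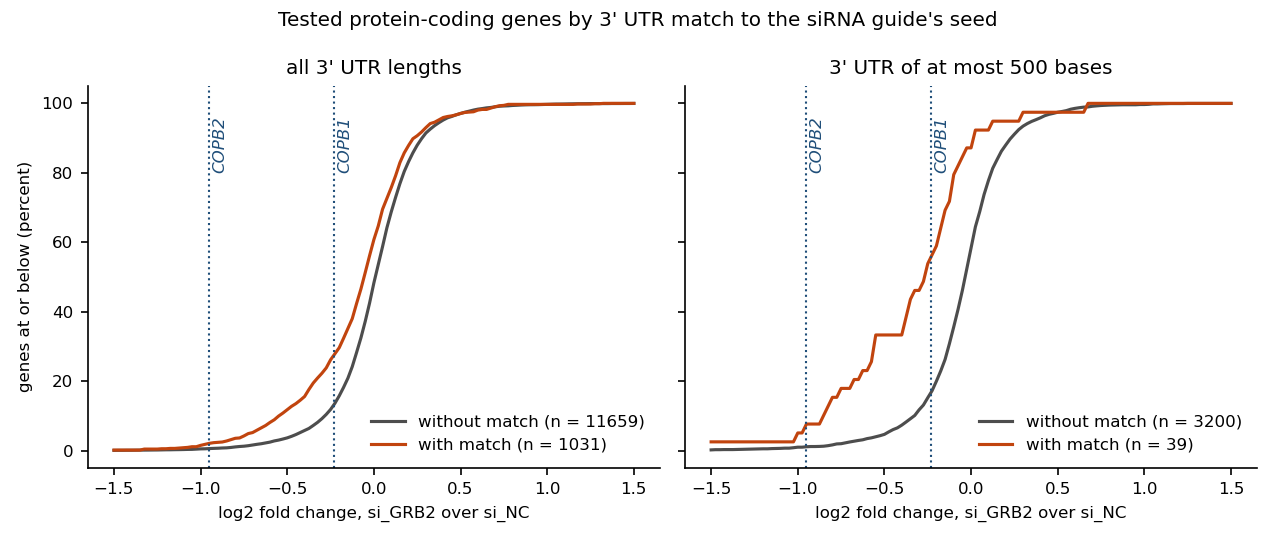
Cumulative share of tested protein-coding genes (y axis, percent) at or below a log2 fold change of si_GRB2 over si_NC (x axis), for genes with (red) and without (grey) a match to the guide's seed in the 3′ UTR, over all UTR lengths (left) and for UTRs of at most 500 bases (right). The red curve lies to the left of the grey one over the falls in both panels, more so for short UTRs (medians of −0.27 and −0.03). Dotted lines mark COPB2 and COPB1, which are among the genes of both red curves.

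COPB2 (ENSG00000184432.11, chromosome 3 from 139353946 to 139389736 in GRCh38, minus strand) had 287.3, 280.0 and 276.1 CPM in si_NC. In si_GRB2 it had 141.9, 144.6 and 149 CPM. Every si_GRB2 library was far below every si_NC library. From a mean of 281 ± 5.71 CPM the level went to 145 ± 3.55 CPM (SD, n = 3 each). This is 1.94-fold lower, or −0.95 on the log2 scale with a standard error of 0.03. This value chose the group. It was the 119th lowest log2 fold change of the 15801 genes tested, and 0.753% of them lay at or below it.

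The 3′ end of COPB2 overlaps MRPS22, a mitochondrial ribosomal protein gene on the opposite strand, over 6378 exonic bases. The study's methods describe libraries that allow strand-specific sequencing, but do not say whether counting used strand. Where it did not, reads of both genes cannot be told apart there. MRPS22 had a mean of 143 ± 5.76 CPM in si_NC and 144 ± 0.192 CPM in si_GRB2 (SD, n = 3 each), with a log2 fold change of 0.01 (edgeR adjusted p = 0.841). Its groups overlapped.

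Of the 8 tested members other than COPB2, 1 (COPB1) was down-regulated at an adjusted p under 0.05 (edgeR's quasi-likelihood test over all genes), against 15.5% of all genes tested. Another 3 (COPG1, ARCN1 and ARF1) were up-regulated, against 15.2% of all genes, and 4 did not pass. In all, 4 of 8 were called, where 30.6% of all genes were. None of the 8 (0 genes) passed the study's limits of a 1.5-fold change and a p under 0.01, applied here to the adjusted p, which 2.52% of all genes passed in either direction and 1.69% as falls. The groups did not overlap in 7 of the 8, beside 42.3% of all genes. The median log2 fold change of the 8 was 0.08, beside 0.0019 over all genes.

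**Figure D2:**
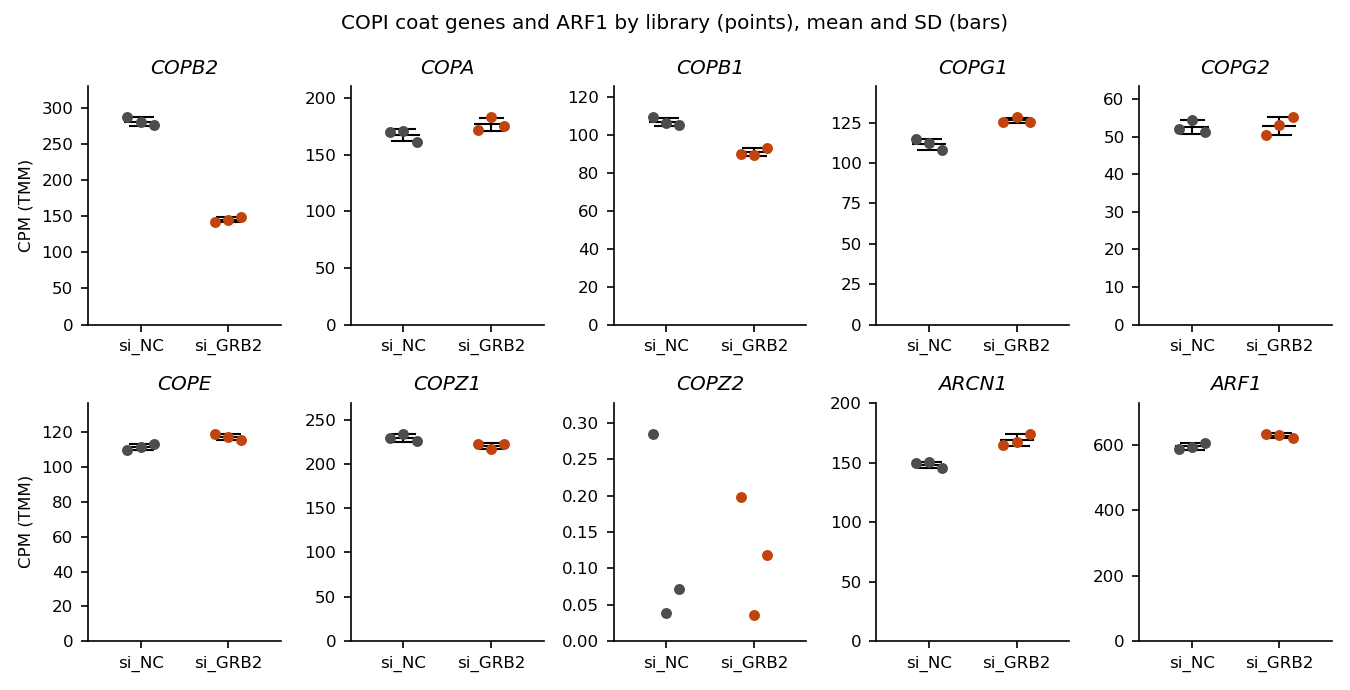
CPM with TMM normalization (y axis, from 0, a scale per gene) of the 10 genes in the 3 si_NC (grey) and 3 si_GRB2 (red) libraries, with the mean and SD as bars, except for COPZ2, where only the libraries are drawn. COPB2 falls from about 281 to 145 CPM and COPB1 from about 107 to 90.9 CPM, and the other panels show smaller changes relative to their level.

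In the outer layer of the coat, neither partner of COPB2 passed the test. COPA (ENSG00000122218.16, chromosome 1 from 160288594 to 160343566), the alpha subunit and partner of the beta-prime subunit, had 169.9, 171.1 and 161.1 CPM in si_NC and 172.1, 183.4 and 175.5 CPM in si_GRB2. The si_GRB2 libraries were all slightly higher than the si_NC libraries. Its log2 fold change was 0.08 with a 95% confidence interval from 0.01 to 0.15 (edgeR adjusted p = 0.081). COPE (ENSG00000105669.14, chromosome 19 from 18899514 to 18919387), the epsilon subunit that steadies the alpha subunit, had 109.7, 111.7 and 113.4 CPM in si_NC and 119.3, 117.2 and 115.8 CPM in si_GRB2. Its groups did not overlap either, with a log2 fold change of 0.07 and an interval from 0.01 to 0.14 (edgeR adjusted p = 0.0963). A gene model named AC002985.3 shares 264 exonic bases with COPE on the same strand. It held 1470 reads against 18257 for COPE, with a log2 fold change of −0.15 (edgeR adjusted p = 0.276). NCSTN, on the opposite strand to COPA and with 188 exonic bases in common, rose by 0.28 on the log2 scale (edgeR adjusted p = 8.76e-06).

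In the inner layer, COPB1 (ENSG00000129083.13, minus strand of chromosome 11 from 14443440 to 14500027) had 109.3, 106.1 and 105 CPM in si_NC and 90.08, 89.47 and 93.11 CPM in si_GRB2. All si_GRB2 libraries were lower. The log2 fold change was −0.23 (standard error 0.03, edgeR adjusted p = 7.05e-05), a fall of 14.9% where COPB2 fell by 48.4%. A gene model named RP11-140L24.4 joins 407 exonic bases of COPB1 to the exons of its neighbour PSMA1 on the same strand. It held 24514 reads against 15795 for COPB1, so the authors' counting could split reads between them, and it had a log2 fold change of 0.10 (edgeR adjusted p = 0.0252). ARCN1 (ENSG00000095139.14, chromosome 11 from 118572390 to 118603033), the delta subunit, moved the other way. It had 149.6, 150.3 and 145.4 CPM in si_NC and 165.3, 167.3 and 174.6 CPM in si_GRB2. This was a rise of 0.19 on the log2 scale (standard error 0.03, edgeR adjusted p = 0.000243).

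The gamma and zeta subunits are each encoded by a pair of paralogs. COPG1 (ENSG00000181789.14, chromosome 3 from 129249606 to 129277773) had 114.9, 112.3 and 108.2 CPM in si_NC and 125.3, 128.5 and 125.7 CPM in si_GRB2. It rose by 0.18 on the log2 scale (standard error 0.03, edgeR adjusted p = 0.000601). COPG2 (ENSG00000158623.14, minus strand of chromosome 7 from 130506238 to 130668748) had 51.99, 54.62 and 51.23 CPM in si_NC and 50.55, 53.09 and 55.27 CPM in si_GRB2. Its groups overlapped, and its log2 fold change was 0.01 with an interval from −0.08 to 0.10 (edgeR adjusted p = 0.896). In the authors' FPKM, COPG1 made up 66.5 ± 0.82% of COPG1 plus COPG2 in si_NC and 69.1 ± 0.948% in si_GRB2 (SD, n = 3 each). The shares did not overlap, with an exact permutation p of 0.1 (two-sided), the smallest that 3 libraries against 3 can give.

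COPG2 shares 228 exonic bases at its 3′ end with MEST on the opposite strand, whose reads were 421% of its own. MEST had a log2 fold change of −0.0037 (edgeR adjusted p = 0.943). COPG2IT1, a long noncoding RNA on the opposite strand within COPG2, had 1.818, 2.04 and 2.816 CPM in si_NC and 3.537, 4.625 and 3.476 CPM in si_GRB2. It rose by 0.80 on the log2 scale (standard error 0.19, edgeR adjusted p = 0.00333), with 486 reads in all, equal to 5.77% of those of COPG2.

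COPZ1 (ENSG00000111481.10, chromosome 12 from 54301202 to 54351846) had 228.6, 234.1 and 225.6 CPM in si_NC and 222.1, 216.7 and 222.9 CPM in si_GRB2. The groups did not overlap, but the log2 fold change of −0.06 (95% confidence interval from −0.12 to 0.0028) did not pass the test (edgeR adjusted p = 0.147). Its paralog COPZ2 (ENSG00000005243.10, chromosome 17 from 48026167 to 48038030) had 8, 1 and 2 reads in si_NC and 5, 1 and 3 in si_GRB2. With 20 reads in 6 libraries it was not tested, and no difference could be seen at this depth. COPZ1 thus held 99.88 ± 0.122% of COPZ1 plus COPZ2 in si_NC and 99.89 ± 0.0775% in si_GRB2 in FPKM (SD, n = 3 each, exact permutation p = 0.9, two-sided).

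ARF1 (ENSG00000143761.16, chromosome 1 from 228082708 to 228099212), the GTPase that recruits the coat, was the member with the most reads. It had 585.3, 594 and 604.9 CPM in si_NC and 633.5, 628.5 and 621.1 CPM in si_GRB2. The groups did not overlap, and ARF1 rose by 0.08 on the log2 scale (standard error 0.02, edgeR adjusted p = 0.0203). That call was lost with the replicate block (edgeR adjusted p = 0.0689), with FPKM, and without any 1 of 4 libraries. Without si_NC replicate 1, si_NC replicate 2, si_GRB2 replicate 1 or si_GRB2 replicate 2, the log2 fold changes were 0.06, 0.07, 0.07 and 0.08. The calls of COPB1, COPG1 and ARCN1 held in each of these fits.

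**Figure D3:**
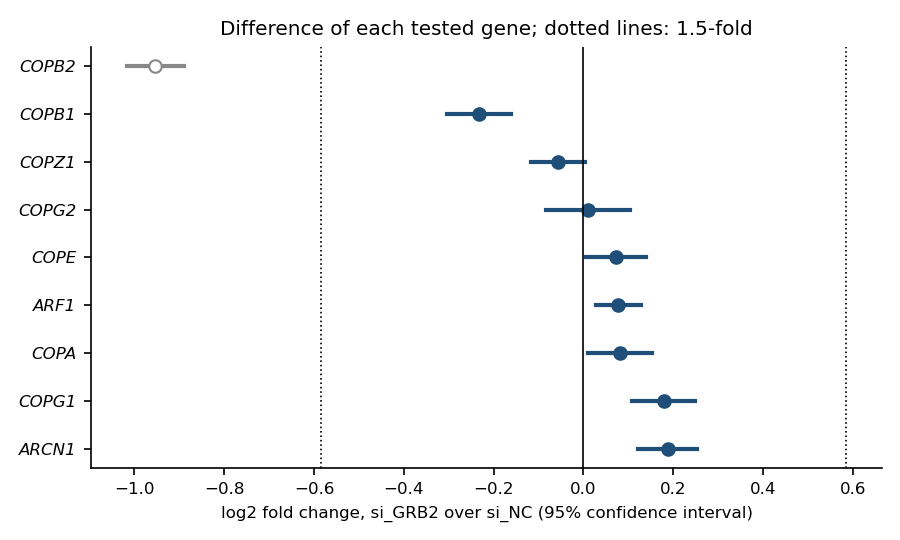
Log2 fold change of si_GRB2 over si_NC (x axis) with its 95% confidence interval for the 9 tested genes, and dotted lines at a 1.5-fold change in each direction. COPB2 (open, not tested) lies at −0.95, and the intervals of the other 8 genes, from −0.305 to 0.25, lie between the dotted lines.

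The unadjusted confidence intervals give the range of the mRNA differences of the other 8 tested genes, judged by the spread between these libraries. The lowest limit among the other 8 was that of COPB1, at −0.305, and the next was that of COPZ1, at −0.12. COPA, COPE, COPG1, ARCN1 and ARF1 had unadjusted intervals above 0, although COPA and COPE did not pass after adjustment over all genes.

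How the subunits compared with each other depended on the length by which reads were divided. The authors' FPKM gave COPB2 a mean of 12.1 ± 0.231 in si_NC, 8th of the 10 genes, and 6.42 ± 0.301 in si_GRB2, 9th of the 10 (SD, n = 3 each). The length implied by its reads and FPKM was 22863 bases on the scale of reads counted on genes. This is 1.22 times the 18721 bases covered by all annotated exons of COPB2 in GENCODE 44, and the same ratio was 1.22 to 1.24 for GRB2 and the other members except COPA, where it was 0.531. The canonical transcript of COPB2 has 3275 bases in 22 exons, so all its exons together are 5.72 times as long, against 1.05 to 3.32 times for the other members. Dividing CPM by the length of the canonical transcript instead gave COPB2 85.8 ± 1.74 CPM per kilobase in si_NC, 4th of the 10 genes, and 44.3 ± 1.09 in si_GRB2 (SD, n = 3 each).

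On CPM per kilobase of canonical transcript, ARF1 was highest in si_NC at 323 ± 5.34, followed by COPZ1 at 121 ± 2.28 and COPE at 98.7 ± 1.64 (SD, n = 3 each). Below COPB2 came ARCN1 at 37.2 ± 0.664 and COPG1 at 36.3 ± 1.10, whose libraries overlapped, and then COPB1 at 32.0 ± 0.67 and COPA at 31.5 ± 1.03, which overlapped too (SD, n = 3 each). COPG2 had 16.8 ± 0.568 and COPZ2 had 0.144 ± 0.146 (SD, n = 3 each). In si_GRB2, COPB2 was still 4th, now close to ARCN1 at 42.3 ± 1.23 and COPG1 at 41.1 ± 0.567, and COPA at 33.3 ± 1.09 lay above COPB1 at 27.2 ± 0.584 (SD, n = 3 each).

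Set against the geometric mean of COPA, COPB1, COPE and ARCN1, the 4 other subunits without a paralog, COPB2 stood at 1.96 times in si_NC and 0.992 times in si_GRB2 on CPM per kilobase. In the authors' FPKM the same ratios were 0.533 and 0.27. The difference between the groups was −0.98 on the log2 scale with either length, which had to be so, since the length of each gene cancels in it. It includes the fall of COPB2 that chose the group. The scales differed in whether COPB2 mRNA started above or below that of its partners. In single libraries, the log2 ratio in FPKM was −0.886, −0.924 and −0.912 in si_NC and −1.9, −1.9 and −1.86 in si_GRB2.

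**Figure D4:**
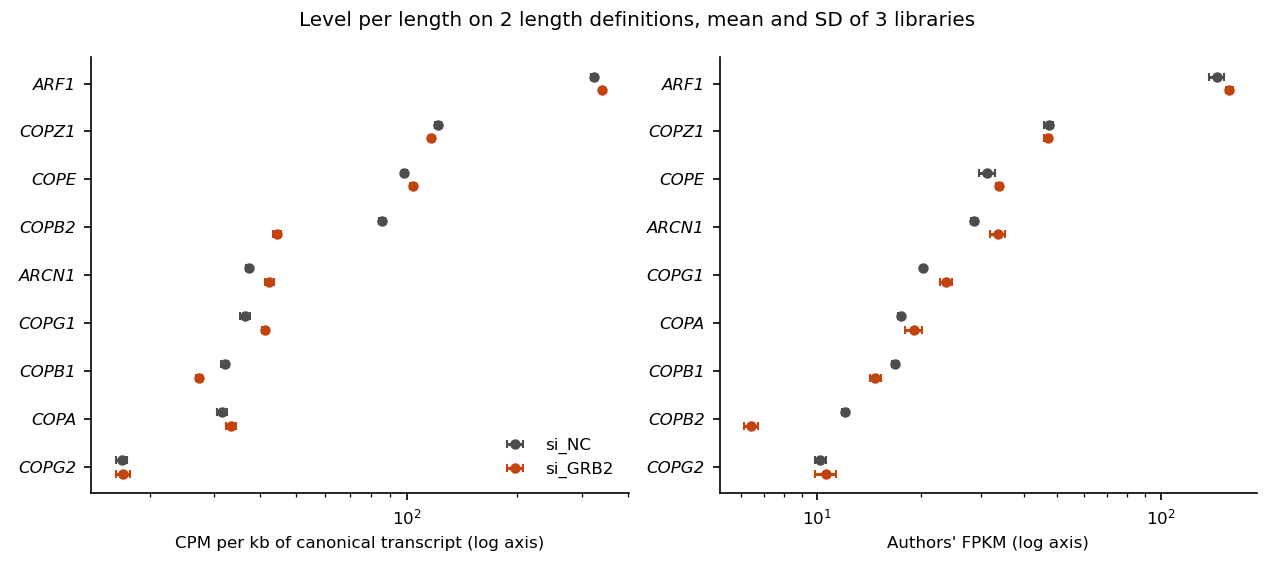
Level per length of the 9 genes with enough reads (x axes, logarithmic), as CPM per kilobase of the canonical transcript (left) and as the authors' FPKM (right), with the mean and SD of the 3 si_NC (grey) and 3 si_GRB2 (red) libraries. Genes are ordered by si_NC, where COPB2 comes 4th of the 10 genes on the left at 85.8 and 8th on the right at 12.1.

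Around the coat, genes were grouped into 6 lists, chosen with earlier results of these libraries known. The 30.6% set beside each list is over all tested genes and was not matched to the read levels of the list. Of 16 COPI cargo receptors and adaptors, 15 were tested, 9 rose, 1 fell and 5 did not pass. They had a median log2 fold change of 0.14, and 66.7% were called at an adjusted p under 0.05 against 30.6% of all genes (edgeR's quasi-likelihood test). The largest rise was that of TMED5, a p24 cargo receptor, from 96.5 to 122 CPM (log2 fold change 0.34, edgeR adjusted p = 6.94e-07) and its relative TMED7 went from 54.0 to 63.1 CPM (log2 fold change 0.23, edgeR adjusted p = 0.000495). GOLPH3L, a relative of a COPI adaptor for Golgi enzymes, rose by 0.25 on the log2 scale (edgeR adjusted p = 0.00218). TMED3 fell by 0.12 on the log2 scale (edgeR adjusted p = 0.00799).

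Of 24 genes of the ARF cycle, all tested, 8 rose, 3 fell and 13 did not pass, with a median log2 fold change of 0.05. This is 45.8% called, beside 30.6% of all genes. GBF1, the exchange factor that loads ARF1 with GTP at the early Golgi, rose from 33.3 to 39.1 CPM (log2 fold change 0.23, edgeR adjusted p = 0.00168). ARFGAP3, which has ARF1 hydrolyse its GTP on COPI membranes, rose by 0.24 on the log2 scale (edgeR adjusted p = 0.00741), and so did IQSEC1, an exchange factor for ARF6 (edgeR adjusted p = 0.00072). The falls were in ASAP1 at −0.43, AGAP3 at −0.36 and CYTH3 at −0.32, regulators of ARF proteins that act largely outside the COPI coat, with edgeR adjusted p-values of at most 0.000295.

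Of 25 tethers and SNAREs of Golgi-to-ER and intra-Golgi traffic, 8 rose, 1 fell and 16 did not pass, with a median log2 fold change of 0.07. The share called, 36.0%, was near the 30.6% of all genes. ZW10, part of the tether that catches COPI vesicles at the endoplasmic reticulum, rose from 23.9 to 37.8 CPM (log2 fold change 0.66, edgeR adjusted p = 1.22e-07). It was the 1 gene of this list past the 1.5-fold limit. The Golgi tethers GOLGA2 and USO1 rose by 0.50 and 0.33 on the log2 scale, with edgeR adjusted p-values of at most 4.01e-06, and BNIP1, a SNARE of the endoplasmic reticulum, fell by 0.26 (edgeR adjusted p = 0.00947).

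The inner layer of the coat is related in structure to the adaptor (AP) complexes, some of which work with clathrin. Of 30 clathrin and AP genes, all tested, 10 rose, 6 fell and 14 did not pass, with a median log2 fold change of 0.07. Of all genes 30.6% were called, and of these 53.3%. AP2A2, an alpha subunit of the adaptor for endocytosis, fell from 64.5 to 43.1 CPM (log2 fold change −0.58, edgeR adjusted p = 1.76e-07), while its paralog AP2A1 rose from 103.5 to 121 CPM (log2 fold change 0.23, edgeR adjusted p = 0.00135). AP4E1 and AP5S1 fell by 0.43 and 0.28 on the log2 scale, and AP5M1 and AP3S1 rose by 0.27 and 0.25, with edgeR adjusted p-values of at most 0.00116.

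COPII, the coat that carries cargo out of the endoplasmic reticulum, had 15 of 16 listed genes tested, of which 9 rose, 1 fell and 5 did not pass, with a median log2 fold change of 0.14. The share called was 66.7%, against 30.6% of all genes. SEC31A of its outer cage rose by 0.29 on the log2 scale (edgeR adjusted p = 1.17e-05), the cargo-binding SEC24C by 0.24 (edgeR adjusted p = 4.39e-06) and SEC23A of its inner layer by 0.18 (edgeR adjusted p = 0.00325). SEC16A, a scaffold of the exit sites, fell by 0.25 (edgeR adjusted p = 0.000237). The 1 gene past the 1.5-fold limit, SEC31B, had few reads, 1.51 and 2.94 CPM in the groups, and is named after its value was seen.

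Of 18 genes of the response to stress in the endoplasmic reticulum, 11 rose, 2 fell and 5 did not pass, so 72.2% were called where 30.6% of all genes were, with a median log2 fold change of 0.13. EDEM1, which sends misfolded glycoproteins to degradation, rose from 44.5 to 58.3 CPM (log2 fold change 0.39, edgeR adjusted p = 4.37e-06), the co-chaperone DNAJB9 by 0.36 (edgeR adjusted p = 8.55e-06) and CRELD2 by 0.31 (edgeR adjusted p = 3.39e-05). DNAJC3 and PDIA4 fell by 0.10 and 0.09 on the log2 scale, with edgeR adjusted p-values of at most 0.0339. No gene of this list (0 genes) reached a 1.5-fold change.

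**Figure D5:**
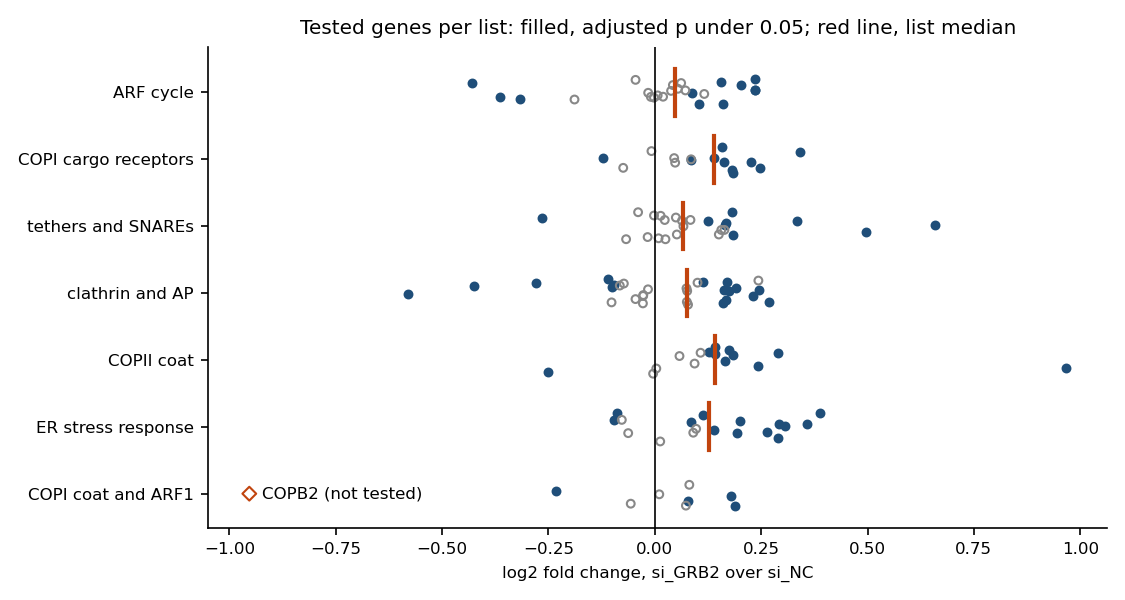
Log2 fold change of si_GRB2 over si_NC (x axis) of every tested gene in each list, filled where edgeR's adjusted p was under 0.05, with the median of each of the 6 lists around the coat as a red line. These medians lie between 0.05 and 0.14, and COPB2 (diamond, not tested) at −0.95 lies below every other gene shown.

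The seed match was looked for in the 6 lists as well. Of their 127 tested genes with a 3′ UTR, 8 held a match, of which 1 (SEC16A) was down-regulated, 1 was up-regulated and 6 did not pass. Of the 119 genes without a match, 13 were down-regulated and 54 up-regulated. Over all tested protein-coding genes with a 3′ UTR, 8.12% held a match. Of those with a match, 30.0% were down-regulated and 12.7% up-regulated, against 16.8% and 18.4% of those without. The 8 genes are too few to compare with these shares, and no difference was tested.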

How the data were processed

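The authors trimmed the reads with FASTX-Toolkit, aligned them to GRCh38 with HISAT2 and deposited the count of uniquely mapped reads for 30327 genes and FPKM for 29912 genes, 1 column per library. The counting tool, its use of strand and the annotation release are not given in the sources used here. Counts were analysed in R 4.3.3 with edgeR 4.0.16. After filterByExpr, which left 15801 genes, and TMM scaling, 3 si_GRB2 were compared with 3 si_NC libraries by the quasi-likelihood test, with Benjamini-Hochberg adjustment over all genes kept and no covariate. Standard errors are the estimate divided by the root of its F statistic. CPM use the TMM factors. The test was also tried on counts simulated from the means and common dispersion of these libraries. Positions, lengths and 3′ UTRs come from GENCODE 44 (GRCh38, the build the authors used), with Ensembl's canonical transcript for each gene. The labels name HISAT2 and GRCh38 in the submitters' processing notes.

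Replicates of a group differed by more than counting noise (chi-square per gene of 2.06 to 4.55). The members and lists were chosen with earlier results of these data known. Named genes are GRB2, the members, cell type markers and some of the genes that overlap a member. Each list adds up to 3 rises and 3 falls with an adjusted p under 0.05 and a mean of at least 5 CPM. SEC31B and the search of 3′ UTRs were added after values were seen. The study names DESeq2, which was an alternative here (1.42.0), with its size factors, other filters, a replicate block, limma 3.58.1 on log2(FPKM + 1) and log2(FPKM + 0.1), and fits without single libraries. Other tables were made in Python 3.11.15.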

Additional observations from a re-analysis of the deposited data

How the results depend on the processing

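The 13 alternatives to the main test kept the direction and the side of the threshold of COPA, COPB1, COPG1, COPE, COPZ1 and ARCN1. Some sizes moved by over 1.5 times without a call. COPA went from 0.0811 to 0.0479 without si_NC replicate 3 (edgeR adjusted p = 0.35), and with limma on log2(FPKM + 0.1) COPA was at 0.124, COPE at 0.116 where edgeR gave 0.0731, and COPZ1 at −0.0129 where edgeR gave −0.0566. The median over all genes was higher in that limma fit as well, at 0.0425 where edgeR gave 0.0019. ARF1 lost its call with the replicate block (0.0779, adjusted p = 0.0689), with limma on log2(FPKM + 1) (0.1208, adjusted p = 0.11) and on log2(FPKM + 0.1) (0.1216, adjusted p = 0.111), and in 4 of the 6 fits without 1 library, in which it ranged from 0.0587 to 0.0853. Whether the replicate numbers pair the libraries was not settled. The deviations of same-numbered libraries correlated at 0.232, −0.0948 and 0.0804, and differently numbered libraries were not compared. The block changed no other call of a member. COPG2, which did not pass in any of these fits, changed sign without si_NC replicate 1, si_NC replicate 3 or si_GRB2 replicate 3, with log2 fold changes from −0.0208 to 0.043 over the 6 fits.

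The log2 fold change of COPB2 was −0.816 with limma on log2(FPKM + 1) and −0.8997 on log2(FPKM + 0.1). These fits add 1 or 0.1 to FPKM, whose means for COPB2 were 12.1 in si_NC and 6.42 in si_GRB2. The median over all genes was 0.0237 and 0.0425 in these fits, beside 0.0019 with edgeR. Their part in the smaller falls was not tested. Without single libraries, the log2 fold change of COPB2 lay from −0.973 to −0.937. Set against COPA alone, its difference was −1.03, and it lay from −0.993 to −0.97 against the 4 subunits without single libraries. The share of COPG1 differed by 2.17 to 3.09 percentage points without single libraries. That of COPZ1 changed sign, from −0.0626 to 0.0484, without si_NC replicate 1 (−0.0626) or si_GRB2 replicate 2 (−0.0286).

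With limma on log2(FPKM + 1) and on log2(FPKM + 0.1), 95 and 261 genes passed the limits on fold change and p where edgeR called 398, and 2633 and 2663 had an adjusted p under 0.05 where edgeR called 4838. In the same order, the genes called fell to 7 and 7 of the ARF cycle, 10 and 10 of the clathrin and AP genes and 6 and 6 of COPII, and to 5 of the tethers and SNAREs with log2(FPKM + 1). The cause was not tested. Without single libraries, from 321 to 420 and from 3774 to 4420 genes passed the same limits, with 3 to 4 of the 8 members, 9 to 11 of the ARF cycle, 9 to 10 cargo receptors, 6 to 8 tethers and SNAREs, 13 to 17 clathrin and AP genes, 9 to 10 of COPII and 10 to 12 stress genes.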
